A study of Lactuca sativa with 6 samples.

Results

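Transcripts of 8 chlorophyll a-b binding proteins were examined among the 2579 genes listed for young leaves of lettuce (*Lactuca sativa*), a leafy vegetable. The genes were chosen as those whose closest Swiss-Prot protein is described as a chlorophyll a-b binding protein. The study compared wild-type plants (WT, cultivar S39) with plants that carry the coding sequence of the lettuce *APETALA2* gene under the cauliflower mosaic virus 35S promoter (*LsAP2*-OE). Leaves of 1-month-old plants were used, with 3 RNA-seq libraries of each genotype that the paper calls biological replicates. The sources do not name the sequenced *LsAP2*-OE line or lines, and a peculiarity of a line cannot be told apart from the action of the transgene. The 35S promoter drives expression in most plant tissues, and all values are from whole leaf tissue. *LsAP2* itself (Lsat_1_v5_gn_3_89681) had values of 25.3, 27.9 and 30.5 in WT and of 214, 209 and 224 in *LsAP2*-OE. The libraries with the transgene therefore stood apart from WT in the targeted gene, whose native and transgene reads are not separated.

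Chlorophyll a-b binding proteins are encoded in the nucleus, imported into the chloroplast and inserted into the thylakoid membrane, where they hold chlorophyll and carotenoids and pass absorbed light energy to the reaction centers. Light-harvesting complex II (LHCII) is the main antenna of photosystem II, and light-harvesting complex I (LHCI) is bound to photosystem I. In *Arabidopsis* and other plants, transcripts of this family are abundant in green leaves and are known to respond to light, to the circadian clock and to signals from the chloroplast. By their Swiss-Prot names, 6 of the lettuce genes resemble LHCII proteins (*CAB21*, *CAB36* and *CAB16* of tobacco and *CAB3C* of tomato), and 2 resemble LHCI proteins (*CAB8* of tomato and P4 of pea).

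Each gene has 1 deposited value per library, a normalized expression level. How it was normalized is not named, so the depth behind a value is unknown and levels are not compared between genes. Only genes that passed the authors' own comparison of these 6 libraries are listed. Antenna genes that did not change were therefore not analysed here, and a fold change or p-value of a listed gene is not independent evidence of a difference. The gene models are named by their IDs, and no sequence or position is shown because no table of sequences for these IDs was used here.

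All 8 chlorophyll a-b binding protein genes were lower in *LsAP2*-OE leaves, at 32.96% to 45.7% of their WT means. Their log2 fold changes ranged from −1.60 to −1.13 with a median of −1.45, on the scale log2(value + 0.1). Each passed an adjusted p below 0.01 from limma, adjusted over the 2579 genes by the Benjamini-Hochberg method. In the whole table, 39.6% of the genes were lower by this criterion (1021 genes), and the groups did not overlap with *LsAP2*-OE lower for 39.7%. For all 8 antenna genes the lowest WT library lay above the highest *LsAP2*-OE library. The median log2 fold change over all listed genes was 1.03. Over the 1021 lower genes it was −1.49, with quartiles of −1.88 and −1.27, so the antenna genes fell by about as much as the other lower genes of the table. In bulk leaf tissue, fewer cells that express these genes and less RNA per cell cannot be told apart.

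**Figure D1:**
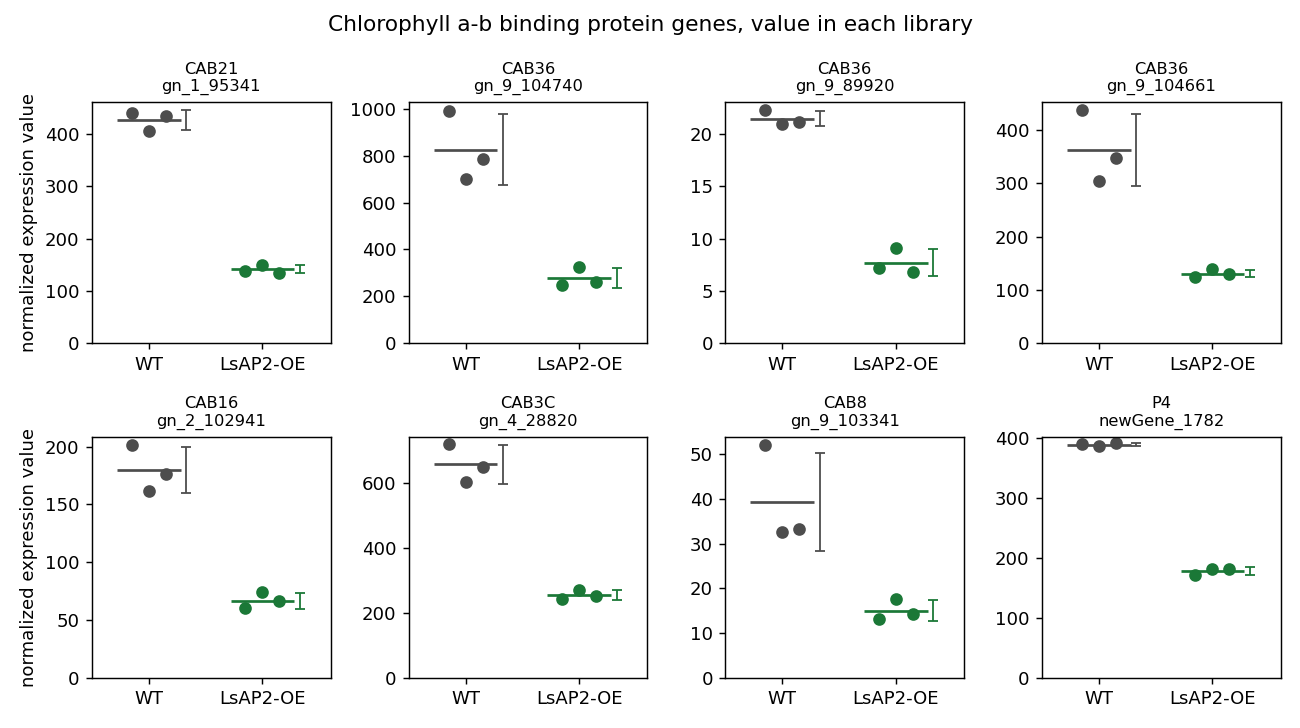
Normalized expression value (vertical axes, each from 0) of the 8 chlorophyll a-b binding protein genes in the 3 WT and 3 *LsAP2*-OE libraries. Points are libraries, horizontal lines are group means and bars are SDs (n = 3). In each of the 8 panels every *LsAP2*-OE library lies below every WT library.

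Of the LHCII genes, the *CAB21*-like gene (Lsat_1_v5_gn_1_95341) had the largest fall. Its values were 441, 406 and 435 in the WT libraries and 138, 149.7 and 135 in the *LsAP2*-OE libraries. The libraries of a group lay close together, with a coefficient of variation of 4.40% in WT and 5.54% in *LsAP2*-OE. The mean was 427.5 ± 18.8 in WT and 141 ± 7.81 in *LsAP2*-OE (SD, n = 3). On the log2 scale this is a change of −1.60 with a standard error of 0.066 (limma, adjusted p = 1.66e-07). It ranked as fall number 414 of the 2579 genes, of which 1021 passed as lower.

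The description *CAB36* was shared by 3 LHCII genes of the table. The first (Lsat_1_v5_gn_9_104740) had values of 993, 699.6 and 785 in WT and of 247, 325 and 262 in *LsAP2*-OE, with WT replicate 1 and *LsAP2*-OE replicate 2 the highest of their groups. Group means were 826 ± 151 and 278 ± 41.4 (SD, n = 3), and the log2 fold change was −1.56 with a standard error of 0.15 (limma, adjusted p = 1.14e-05). The second (Lsat_1_v5_gn_9_104661), whose NR description is the same marigold (*Tagetes erecta*) protein, had values of 438, 304 and 348 in WT and of 124, 138 and 129 in *LsAP2*-OE. The same libraries were the highest, and the log2 fold change was −1.46 (standard error 0.12). If the first and second are near copies in sequence, which was not examined, reads may be split between them. Each single value is then uncertain. The log2 ratio of the first to the second was 1.19 ± 0.013 in WT and 1.08 ± 0.13 in *LsAP2*-OE (SD, n = 3), a difference of −0.10 (exact permutation test, two-sided, p = 0.4). This difference was smaller than the SD in *LsAP2*-OE but larger than the SD in WT. The *LsAP2*-OE libraries had ratios of 0.997, 1.23 and 1.02, on both sides of the WT values of 1.17 to 1.20. The third *CAB36*-like gene (Lsat_1_v5_gn_9_89920), described in NR as an antenna protein of photosystem II, had values of 22.3, 21.0 and 21.2 in WT and of 7.21, 9.13 and 6.77 in *LsAP2*-OE. The groups were again apart, and the log2 fold change was −1.48 with a standard error of 0.12 (limma, adjusted p = 4.13e-06).

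The *CAB16*-like gene (Lsat_1_v5_gn_2_102941) is the one LHCII member whose NR description is a lettuce protein, the precursor of a light-harvesting chlorophyll a/b protein. Values of 202, 162 and 176 were found in WT and of 59.9, 73.9 and 66.1 in *LsAP2*-OE. This gene lay nearest to the average profile of the family, and its group means were 179.8 ± 20.1 and 66.6 ± 7.05 (SD, n = 3). The log2 fold change was −1.43 (standard error 0.10). The *CAB3C*-like gene (Lsat_1_v5_gn_4_28820) had values of 719.95, 603 and 652 in WT and of 241, 271 and 253 in *LsAP2*-OE. Both genotypes were again apart, with means of 658 ± 58.9 and 255 ± 15.02 (SD, n = 3), and the log2 fold change was −1.36 with a standard error of 0.083 (limma, adjusted p = 1.04e-06).

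The LHCI genes had the widest and the narrowest spread between WT libraries. The *CAB8*-like gene (Lsat_1_v5_gn_9_103341) had values of 52.0, 32.6 and 33.2 in WT and of 13.1, 17.6 and 14.2 in *LsAP2*-OE. WT replicate 1 stood above the other WT libraries, and the coefficient of variation of 28.01% in WT was the largest of the 8 genes. Its log2 fold change was −1.36 with a standard error of 0.19 (limma, adjusted p = 1.26e-04), and −1.14 without WT replicate 1, with an adjusted p of 5.52e-05 from limma (range over all alternatives 3.96e-06 to 9.00e-04). The P4-like gene (Lactuca_sativa_newGene_1782) is one of 197 listed genes that carry IDs of new genes. It had values of 390.0, 387 and 392 in WT and of 171, 181 and 182 in *LsAP2*-OE, with a coefficient of variation of 0.613% in WT, the smallest of the 8 genes. Means of 389.7 ± 2.39 and 178 ± 6.21 (SD, n = 3) gave a log2 fold change of −1.13 with a standard error of 0.056 (limma, adjusted p = 3.84e-07). This was the smallest fall of the family, at number 992 of the 2579 genes, of which 1021 passed as lower. It was the only one of the family above the upper quartile of −1.27 of the lower genes.

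The summed value of the 8 genes was 3258, 2615 and 2841 in WT and 1001, 1166 and 1049 in *LsAP2*-OE. The mean of the sum fell from 2905 ± 326 to 1072 ± 84.9 (SD, n = 3), 36.9% of WT. The log2 ratio was −1.43, with p = 0.1 in an exact two-sided permutation test, the smallest value that 3 libraries against 3 allow. As a share of the summed value of all listed genes, the antenna genes made up 2.67% to 2.88% in WT and 0.972% to 1.07% in *LsAP2*-OE. The listed genes were selected for change, so this is not a share of all transcripts. Histone genes alone summed to 41425 to 55216 in WT and to 15472 to 16177 in *LsAP2*-OE. Whether the values are per length is not named, so the sums weight each gene as the deposited scale does.

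The antenna genes also moved together between libraries of the same genotype. In WT, 7 of the 8 genes were highest in replicate 1, beside 33.2% of all listed genes, and all 8 were lowest in replicate 2. In *LsAP2*-OE, 7 of the 8 were highest in replicate 2, beside 37.0% of all listed genes, and 6 were lowest in replicate 1. For the lowest libraries the share over all listed genes was not counted. The median ratio of WT replicate 1 to the mean of the other WT libraries was 1.17 over the antenna genes and 0.977 over listed genes that average 1 or more. Over listed genes with a WT mean of 20 or more it was 1.03. For *LsAP2*-OE replicate 2 these ratios were 1.14, 1.01 and 1.03. The summed value of all listed genes was also highest in these libraries, with WT replicate 1 at 112997 while its group's other sums were 97790 and 100310. *LsAP2*-OE replicate 2 reached 108937, compared with 103060 and 103138. The P4-like gene took little part in this, with ratios to its group mean of 0.994 to 1.01 in WT and of 0.960 to 1.02 in *LsAP2*-OE. Histone genes, of which 78 are listed, were also high in WT replicate 1, with a median ratio to the WT mean of 1.18 there and of 0.888 and 0.926 in the others, while their median ratios in *LsAP2*-OE were 0.989 to 1.02. What sets these libraries apart was not tested.

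**Figure D2:**
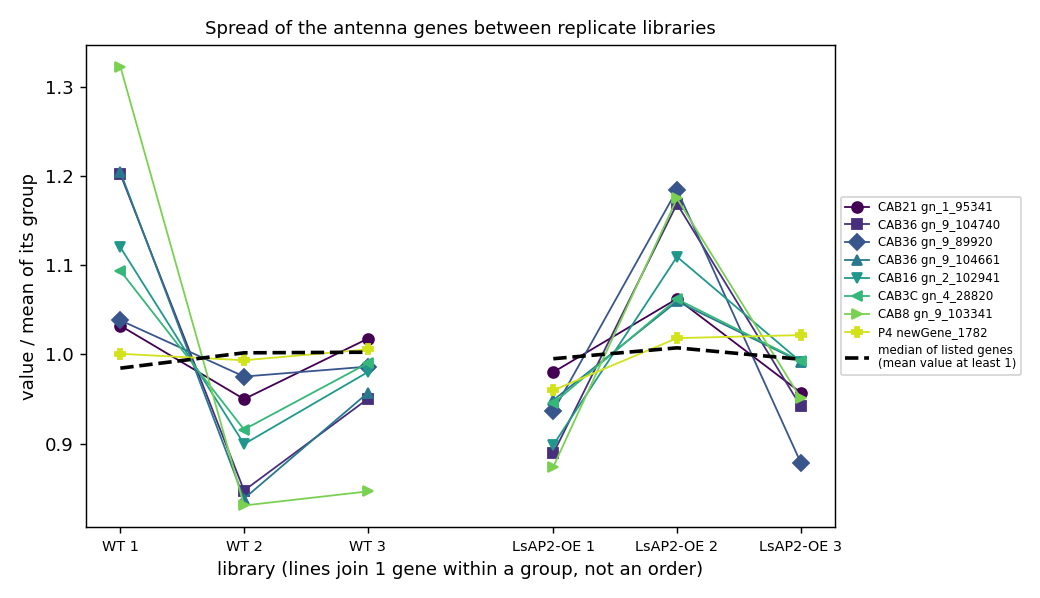
Value of each chlorophyll a-b binding protein gene divided by the mean of its group (vertical axis) in the 6 libraries (horizontal axis). Each marker is a gene, thin lines join 1 gene within a genotype, and the dashed line is the median of listed genes that average 1 or more. Most antenna genes are high in WT replicate 1 and *LsAP2*-OE replicate 2, where the dashed line stays near 1, and the P4-like gene stays between 0.960 and 1.02.

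Whether the family changed evenly was examined with the log2 ratio of each gene to the mean of the other antenna genes, in which a factor particular to a gene cancels between genotypes. The ratio of the P4-like gene was 0.77, 1.12 and 1.03 in WT and 1.36, 1.17 and 1.40 in *LsAP2*-OE. It was higher in all 3 *LsAP2*-OE libraries than in any WT library, with a difference of 0.34 (exact permutation test, two-sided, p = 0.1, the smallest possible, and 0.53 adjusted over the 8 genes). For the other 7 genes the groups overlapped, and the differences ranged from −0.20 for the *CAB21*-like gene to 0.07 for the *CAB8*-like gene. Adjusted p-values of these 7 were 0.53 to 0.9. The mean of the LHCI genes relative to that of the LHCII genes was −1.09 ± 0.069 in WT and −0.86 ± 0.036 in *LsAP2*-OE on the log2 scale (SD, n = 3), a difference of 0.24 (exact permutation test, two-sided, p = 0.1). The LHCI mean rests on 2 genes whose own differences were 0.34 and 0.07, so the contrast is mostly that of the P4-like gene.

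**Figure D3:**
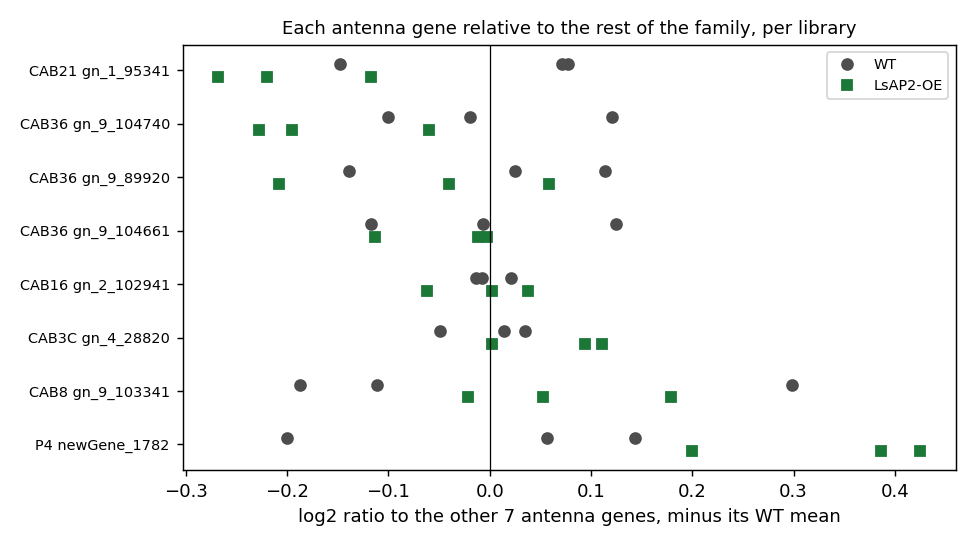
Log2 ratio of each chlorophyll a-b binding protein gene to the mean of the other antenna genes, minus its WT mean (horizontal axis), for the 8 genes (vertical axis). Circles are WT libraries and squares are *LsAP2*-OE libraries. For the P4-like gene all squares lie to the right of all circles, and for the other genes the symbols overlap.

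Other genes of photosynthesis in the table did not share one direction with the antenna genes. The antenna proteins belong to a larger family, and 2 of its distant relatives are listed. *EARLY LIGHT-INDUCED PROTEIN 1* (Lsat_1_v5_gn_6_76700), a stress-induced pigment binding protein, had values of 6.08, 3.22 and 4.56 in WT and of 1.92, 1.48 and 1.35 in *LsAP2*-OE. It was lower, and its log2 fold change was −1.45, with a standard error of 0.25 (limma, adjusted p = 4.51e-04). *PSBS* (Lsat_1_v5_gn_6_35480), which acts in the dissipation of excess light energy, was higher instead, with values of 325, 309 and 318 in WT and of 598, 614 and 583 in *LsAP2*-OE. Its log2 fold change was 0.92 with a standard error of 0.059 (limma, adjusted p = 1.38e-06).

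Of 12 listed genes of photosystem subunits and assembly, 10 were higher, 1 was lower and 1 did not pass, with a median log2 fold change of 1.15. In the whole table, 59.1% of the genes were higher. The lower gene was *PSAL* (Lsat_1_v5_gn_8_98481), a subunit of photosystem I, with values of 609, 532 and 551 in WT and of 198, 218 and 190.1 in *LsAP2*-OE. Its log2 fold change of −1.48 (standard error 0.079) lay within the range of the antenna genes. A gene model described as photosystem I apoprotein A2 (Lsat_1_v5_gn_1_88101) had a log2 fold change of −1.16 and an adjusted p of 0.0623 from limma. The higher genes with the largest changes were a photosystem II W protein gene (Lsat_1_v5_gn_9_9761) and a PsbQ-like gene (Lsat_1_v5_gn_5_4581), with log2 fold changes of 1.89 and 1.51. Most of the 10 are PsbP-like, PsbQ-like or assembly proteins rather than core subunits, and in *Arabidopsis* the PsbQ-like proteins belong to the chloroplast NDH complex, which works around photosystem I.

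Of 10 genes matched for electron transport and ATP synthase, 9 were higher and 1 was lower, with a median log2 fold change of 1.17. In the whole table, 59.1% of the genes were higher, and the median log2 fold change was 1.03. The largest rises were those of a pair of ferredoxin-nitrite reductase genes (Lactuca_sativa_newGene_7467 and Lsat_1_v5_gn_7_86981), each with a log2 fold change of 1.77. These and a ferredoxin-dependent glutamate synthase gene (Lsat_1_v5_gn_5_158001, log2 fold change 1.34) use ferredoxin for nitrogen assimilation rather than carry the photosynthetic chain. They are among the 9 higher genes, so the count is not one of the chain alone. The lower gene was a quinone oxidoreductase-like gene (Lsat_1_v5_gn_8_156221), with a log2 fold change of −1.27.

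**Figure D4:**
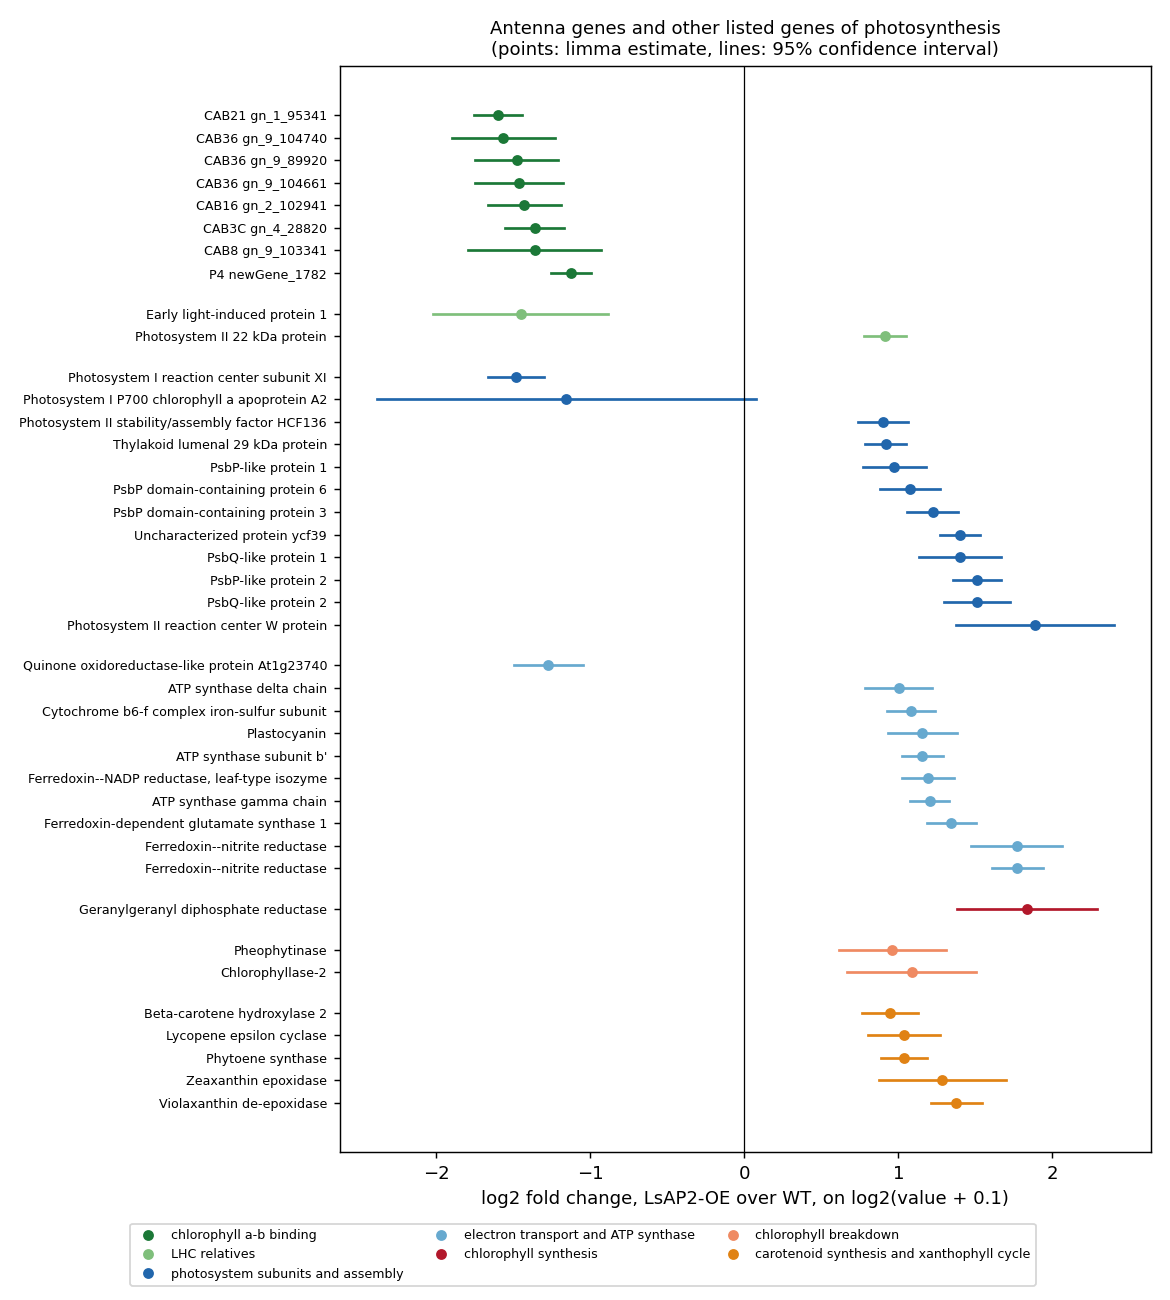
Log2 fold change of *LsAP2*-OE over WT on the scale log2(value + 0.1) (horizontal axis) for the 8 antenna genes and 32 other listed genes (vertical axis, grouped by list). The 32 were matched by words for photosynthesis and its pigments, and some act in nitrogen assimilation instead. Points are limma estimates and lines are 95% confidence intervals. The antenna genes lie between −1.60 and −1.13, and 4 other genes also lie in that range: *EARLY LIGHT-INDUCED PROTEIN 1*, *PSAL*, the quinone oxidoreductase-like gene and photosystem I apoprotein A2, which did not pass. The remaining genes lie above 0.

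The listed genes for the pigments that the antenna binds are few, and all were higher, beside 59.1% of the whole table. The list of chlorophyll synthesis held 1 gene, a geranylgeranyl reductase (Lsat_1_v5_gn_4_108620), which makes the phytyl tail of chlorophyll, and it rose from 1.08 ± 0.208 to 4.10 ± 0.572 (SD, n = 3). Both listed genes of chlorophyll breakdown rose, chlorophyllase-2 (Lsat_1_v5_gn_8_66120) by 1.09 and pheophytinase (Lsat_1_v5_gn_4_152681) by 0.96 on the log2 scale. All 5 listed genes of carotenoid synthesis and the xanthophyll cycle rose, with a median log2 fold change of 1.04. Among them were violaxanthin de-epoxidase (Lactuca_sativa_newGene_2766, log2 fold change 1.38) and zeaxanthin epoxidase (Lsat_1_v5_gn_1_24721, 1.29), which act in opposite directions on the pigments of the xanthophyll cycle. The others were phytoene synthase (Lsat_1_v5_gn_3_67861, 1.04), the entry enzyme of carotenoid synthesis, lycopene epsilon cyclase (Lsat_1_v5_gn_7_34600, 1.03), on the branch to lutein, and a beta-carotene hydroxylase (Lsat_1_v5_gn_9_56521, 0.95).

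The words searched for the targeting and phosphorylation of antenna proteins matched 10 genes. Of these, 9 were higher and 1 was lower, beside 59.1% and 39.6% of the whole table. Of the 10, 7 are described as TIC proteins, which belong to protein import at the inner envelope, and 1 as CURVATURE THYLAKOID 1B, which shapes thylakoid membranes. The other two had opposite directions, so the count does not describe the targeting or phosphorylation of antenna proteins. *STN8* (Lsat_1_v5_gn_9_39580), a thylakoid protein kinase, rose from 7.34 ± 1.08 to 22.2 ± 1.35 (SD, n = 3). The lower gene encodes the chloroplast subunit of the signal recognition particle (Lsat_1_v5_gn_9_21981), which in *Arabidopsis* delivers antenna proteins to the thylakoid. Its values were 2.37, 1.84 and 2.88 in WT and 0.530, 0.641 and 0.591 in *LsAP2*-OE, and its log2 fold change was −1.82 with a standard error of 0.21 (limma, adjusted p = 4.69e-05). The largest rises were those of a pair of genes described as the short-chain dehydrogenase TIC 32 (Lsat_1_v5_gn_3_6681 and Lsat_1_v5_gn_3_6761), with log2 fold changes of 4.68 and 1.63. WT values of the former were low and uneven, at 0.632, 0.240 and 0.897, so the size of its rise is uncertain.

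Of 24 listed regulators that respond to light or belong to the circadian clock, 10 were higher and 14 lower, beside 59.1% and 39.6% of the whole table, and their median log2 fold change was −1.34. Nearly every listed gene passed in one direction or the other, because the table was selected for change. The largest falls were those of a pair of genes with the Swiss-Prot description *CONSTANS-LIKE 4*. One (Lsat_1_v5_gn_3_41740), which NR describes instead as an rRNA biogenesis protein, had a log2 fold change of −4.23, and the other (Lsat_1_v5_gn_8_131201) had values of 3.33, 3.41 and 4.01 in WT and of 0.126 and 0.131 in 2 *LsAP2*-OE libraries and was listed at 0 in the third. The largest rises were those of a pair of *PHYTOCHROME KINASE SUBSTRATE 1* genes (Lsat_1_v5_gn_4_9921 and Lsat_1_v5_gn_8_53121), which act in phototropism, with log2 fold changes of 2.44 and 2.15. Clock genes among the 14 lower were those described as *APRR5* (Lsat_1_v5_gn_8_4341, log2 fold change −2.06), *REVEILLE 8* (Lsat_1_v5_gn_2_109801, −1.92) and *GIGANTEA* (Lsat_1_v5_gn_6_101520, −1.52, and Lsat_1_v5_gn_9_42181, −1.21). No listed gene matched the names *GLK*, *HY5*, *CCA1* or *LHY*, regulators of antenna genes in *Arabidopsis*, and such genes were not analysed here. The sources do not give the time of day at which leaves were taken. The part of these regulators in the fall of the antenna genes was not tested.

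Markers of leaf cell types are given beside the whole table, in which 59.1% of genes were higher and 39.6% lower. All 9 listed genes of the Rubisco small chain and carbonic anhydrase, abundant in mesophyll cells, were higher, and their summed value was 6097 to 6537 in WT and 17539 to 20383 in *LsAP2*-OE. The largest rises were those of a Rubisco small chain gene (Lsat_1_v5_gn_2_79541) and carbonic anhydrase 1 (Lsat_1_v5_gn_4_182521), with log2 fold changes of 7.39 and 7.15. The WT values of the former, 0.0951, 0.111 and 0.177, are about as small as the pseudocount of 0.1, so its fold change depends on it, and the ratio of its means without a pseudocount was 295. Carbonic anhydrase 1 was also low in WT, with a mean of 2.33, against 346 in *LsAP2*-OE. The antenna genes, also typical of mesophyll, fell in the same libraries. A change in the share of mesophyll cells was not tested. All 78 histone genes, typical of dividing cells, were lower, with summed values of 41425 to 55216 and of 15472 to 16177. The largest falls among them were those of an H2B gene (Lsat_1_v5_gn_2_63781) and an H4 gene (Lsat_1_v5_gn_7_36021), with log2 fold changes of −2.24 and −2.0.

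All 14 listed xylem markers were higher, beside 59.1% of the whole table, with summed values of 26.8 to 32.2 in WT and of 68.5 to 71.5 in *LsAP2*-OE. They were led by the laccase genes Lsat_1_v5_gn_9_24380 and Lsat_1_v5_gn_2_76580, with log2 fold changes of 1.45 and 1.44. All 6 genes matched for phloem were higher (80.8 to 93.6 and 178 to 191), as were all 5 matched for senescing leaves (88.1 to 106 and 204 to 221). Most of the latter sum is that of a gene described as YLS9 (Lsat_1_v5_gn_2_56001), with means of 85.5 in WT and 185 in *LsAP2*-OE. Pheophytinase is also counted under chlorophyll breakdown. The words for phloem took in any SWEET sugar transporter, so the list is not particular to phloem. The phloem list includes *SUC2* (Lsat_1_v5_gn_1_6801, log2 fold change 1.07), which loads sucrose. Of 4 genes matched for guard cells, *SLAC1* (Lsat_1_v5_gn_3_4860) and *FAMA* (Lsat_1_v5_gn_2_44720) were higher, with log2 fold changes of 1.69 and 1.23. The other two were the anion channel genes *SLAH1* and *SLAH3*, with log2 fold changes of −1.70 and −1.69, which are not particular to guard cells. None of the genes of these lists was listed at 0 in any library. Their part in the fall of the antenna genes was not tested, and genes of these cell types that did not change were not analysed here.

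Among 684 genes that have a Swiss-Prot name other than that of an antenna protein and average 10 or more, the 5 whose profile over the 6 libraries was nearest to the average antenna profile were taken. Likeness was measured by the root mean square difference of centred log2 values. They were a threonine aldolase gene (Lsat_1_v5_gn_2_108040, 0.0464), a histone H3 gene (Lsat_1_v5_gn_6_81961, 0.0476), a class I heat shock protein gene (Lsat_1_v5_gn_2_120081, 0.0530), a histone H4 gene (Lsat_1_v5_gn_1_129540, 0.0563) and *PSAL* (0.0579). For comparison, the distance of an antenna gene to the average of the other antenna genes was 0.0310 for the *CAB16*-like gene and 0.0546 for the *CAB3C*-like gene, and reached 0.209 for the P4-like gene. Of the 8 antenna genes, 6 lay farther from the rest of their family than these 5 genes, picked as the nearest, lay from its average. The 5 are the nearest of 684, and an antenna gene was left out of the average it was set against. The comparison therefore cannot say whether the family is less alike than other genes. All 5 were highest in WT replicate 1 and lowest in WT replicate 2, which follows from how they were picked. In *LsAP2*-OE all 5 were highest in replicate 2, and *PSAL* was lowest in replicate 3, while the other 4 were lowest in replicate 1. The likeness in *LsAP2*-OE also follows from the choice, which used all 6 libraries.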

How the data were processed

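The data are RNA-seq libraries of young leaves from WT (3) and *LsAP2*-OE (3) plants. Per the paper, the authors mapped reads with HISAT2 and kept genes at a fold change of 2 or more and an FDR under 0.01 by DESeq. HISAT is also named in the submitters' processing notes. Tool versions, quantifier and genome build were not given in the sources used here. As deposited by the authors, the signal is 1 normalized expression value for a gene in a library. Low values share no step, so neither counts nor depth could be recovered. The columns of the authors' own FDR and fold change were not used.

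Values on the scale log2(value + 0.1) were compared by limma 3.58.1 (R 4.3.3) over the 2579 genes, with a variance trend and without a filter or replicate block. Single values per library were compared by exact permutation tests. Other tools were the package data.table (version 1.17.8), and Python 3.11.15 with matplotlib 3.10.9, pandas 2.3.3 and numpy 2.4.6. The procedure was tested on simulated data. Members and lists were matched by words of the Swiss-Prot description, carried by 1949 genes, and were chosen with earlier results of these data known. Named genes are the members, *LsAP2*, every gene of a list of up to 6, in longer lists the 2 largest rises and the 2 largest falls past the threshold, and the 5 nearest profiles. Phloem and senescence genes are given by count except for *SUC2*, pheophytinase and a YLS9 gene. Photosystem I apoprotein A2, the glutamate synthase gene and the *APRR5*, *REVEILLE 8* and *GIGANTEA* genes were named after their values were seen. The IDs had 0 matches among RefSeq genes (assembly Lsat_Salinas_v11).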

Additional observations from a re-analysis of the deposited data

How the results depend on the processing

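All 8 antenna genes stayed lower at the threshold under both other pseudocounts (1 and 0.01), a fit to genes that average 1 or more, both rescalings, no mean-variance trend, an adjusted p below 0.05 and each library left out. With members matched to the NR descriptions instead, 7 of 7 were lower. Both rescalings rest on the listed genes alone, which were selected for change. Over the whole table, 891 to 1029 genes were lower in the alternatives, against 1021, with 891 in the fit to genes that average 1 or more. Staying lower is thus not particular to the antenna genes. Centring each library on its median log2 value, which lies 0.28 higher in *LsAP2*-OE in this selected table, moved the median log2 fold change of the antenna genes from −1.45 to −1.73. It was −1.51 to −1.33 with each library left out, and −1.33 without WT replicate 1, where the antenna genes were high. The labels do not say whether the replicate numbers pair the libraries. Deviations of libraries with the same number had correlations of −0.041 to 0.0062 over 2210 genes. No shared deviation was thus seen, which cannot exclude a pairing. With replicate number as a block, 8 antenna genes were lower, the median was −1.45, and 1018 table genes were lower and 1520 higher, against 1021 and 1525 without the block. The difference between LHCI and LHCII kept its sign, at 0.20 to 0.27 over the alternatives run, and so did the relative ratio of the P4-like gene, at 0.24 to 0.41. Differences of other genes relative to the family changed sign for 4 genes, none of which differed beyond the spread between libraries. Unknown depth leaves the precision from counting unknown, and 3 libraries per group cannot give an exact p below 0.1.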
